A study of Mus musculus with 4 samples.

Results

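The heat shock chaperones described here are 10 genes taken by name from the expression matrices of 4 libraries, in which 19491 genes were listed: Hspa1a, Hspa1b, Hsph1, Dnajb1, Hspb1, Hsp90aa1, Hspa8, Hspe1, Hspd1 and Hspa5. All 10 were listed in each library. The genes were picked by name with earlier results from these libraries known, so their levels are given as a description. Single CD45+ cells, that is leukocytes carrying the pan-leukocyte surface protein encoded by Ptprc, were sorted from the dura mater, the outer meningeal layer under the skull, or from the brain of C57BL/6J mice labelled as adult and 8 weeks old in the series' design. The 2 injured groups (INJ brain and INJ dura) were taken on day 3 after photothrombotic injury, in which a photosensitive dye in the blood is activated by light through the skull so that vessels clot, and the 2 control groups (CT brain and CT dura) carry only the label CT, which the study's methods describe as sham operated. No transgene or drug was named for any of the 4 groups. Each group is 1 library, the number of mice behind it was not given in the sources used here, and no difference between groups can be tested. All intervals below are 95% intervals for counting error alone.

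Heat shock proteins are chaperones that hold, refold or hand over unfolded proteins. In the cytosol, HSP70 proteins work with HSP40 co-chaperones and HSP110 exchange factors, and their inducible genes are switched on within minutes to hours by the transcription factor HSF1 when a cell is warmed, starved of oxygen or otherwise stressed, enzymatic tissue digestion included. A separate chaperone of the endoplasmic reticulum, BiP, is governed by the unfolded protein response, and the mitochondrial chaperonin pair folds imported proteins. Microglia, the resident macrophages of the brain, and border macrophages, those of the meninges and perivascular spaces, are known to show such transcripts readily after tissue dissociation.

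The promoters of the members that the results turn on are shown because HSF1 and the unfolded protein response act through short elements near the start of transcription. Sequences are from RefSeq on GRCm38.p6, read 5′ to 3′ on the strand of the gene, and capitals mark the letters matched. Of the 10 members, 8 had an entry, and Hsp90aa1 and Hspa8 did not. The motifs searched on both strands were the heat shock elements GAANNTTC and TTCNNGAA, the 3-unit heat shock element, which is GAANNTTC continued by NNGAA and so holds both of the former, and the endoplasmic reticulum stress element, which is CCAAT and CCACG set 9 bases apart. Among 32851 promoter windows of 250 bases, 6.69%, 7.17%, 0.466% and 0.113% held them in that order. The 150 bases before the start are given for Hspa1a (chr17:34972157-34972306, minus strand), Hspa1b (chr17:34959239-34959388, minus strand) and Hspb1 (chr5:135887769-135887918, plus strand).
Hspa1a: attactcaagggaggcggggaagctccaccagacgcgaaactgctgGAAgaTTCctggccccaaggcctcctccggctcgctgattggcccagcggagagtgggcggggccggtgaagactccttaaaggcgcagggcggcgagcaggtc
Hspa1b: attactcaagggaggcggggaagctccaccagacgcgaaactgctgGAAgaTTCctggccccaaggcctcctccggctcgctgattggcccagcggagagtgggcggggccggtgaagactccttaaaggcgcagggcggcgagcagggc
Hspb1: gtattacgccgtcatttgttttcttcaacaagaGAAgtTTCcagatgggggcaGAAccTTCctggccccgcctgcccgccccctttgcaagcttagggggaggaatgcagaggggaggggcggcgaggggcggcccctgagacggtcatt
Hspa1a and Hspa1b lie side by side on chromosome 17, and their 150 bases differed at 1 position. Both held GAANNTTC from -104 to -97, and Hspb1 held it at -117 and at -97. For the other members 30 bases around the match are given, for Hspe1 (chr1:55088053-55088082, plus strand), Hsph1 (chr5:149636351-149636380, minus strand) and Hspa5 (chr2:34772020-34772049, plus strand).
Hspe1: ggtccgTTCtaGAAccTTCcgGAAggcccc
Hsph1: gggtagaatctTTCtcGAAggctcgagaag
Hspa5: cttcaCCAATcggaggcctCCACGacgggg
The Hspe1 site, from -89 to -72, held the 3-unit element. Hspe1 and Hspd1 are transcribed away from each other from chromosome 1, and the same bases, read on the other strand, lie at -144 to -127 of the downstream of the RefSeq starts of Hspd1. The Hspa5 site held the endoplasmic reticulum stress element from -65 to -47 and no heat shock element was found in its window. Neither window of Dnajb1 held any of these letters. A match is a string of letters and not a bound site.

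Hspa1a (chr17:34969190-34972156, GRCm38) and Hspa1b (chr17:34956436-34959238) are both protein coding on the minus strand. Their coding sequences were identical at 1915 of 1923 bases, so reads within them are hard to assign. The stretches after the stop codon, where a 3′ assay reads, were 46.5% identical over 815 aligned positions. Hspa1a also overlaps a gene on the opposite strand, Gm20481, and the 5′ ends of Hspe1 and Hspd1 overlap each other on opposite strands. Whether counting used the strand was not stated, so the division of reads between overlapping genes on opposite strands is uncertain.

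After filtering, 3569 cells of CT brain, 3385 of CT dura, 4320 of INJ brain and 2569 of INJ dura were kept, with a median of 8168, 9201, 14012 and 14058 unique molecular identifiers (UMIs, 1 per captured RNA molecule) per cell. Between 91.8% and 95.5% of cells had a Ptprc UMI, although the source field of both brain libraries reads CD45-+ where their titles read CD45pos. Pairs of libraries shared 0 to 7 kept cell barcodes. Marker lists placed 12368 of 13843 kept cells in a class, called "-like" here, and 50 combinations of class and library held at least 50 cells. Of the classified cells, 8.54% lay near the limit of the gate. Ly6C low monocyte-like cells also carried S100a8, a neutrophil gene, at 8719 to 20157 of each 1000000 UMIs, and what share of them are other cells was not tested. Levels are UMIs of a gene in each 1000000 UMIs of a class (CPM), without regard to transcript length, and are compared between cells and never between genes.

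CT brain stood apart from the other libraries for Hspa1a and Hspa1b, the stress-inducible HSP70 genes. Over all kept cells Hspa1a was at 2232 CPM in CT brain, 662 in INJ brain, 498 in CT dura and 266 in INJ dura. For Hspa1b these values were 1096, 213, 220 and 104 CPM. Of 9 classes found in all 4 libraries, 8 had their highest Hspa1a level in CT brain, and immature neutrophil-like cells had it in INJ brain. The same 8 of 9 held for Hspa1b and for Hsph1.

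**Figure D1:**
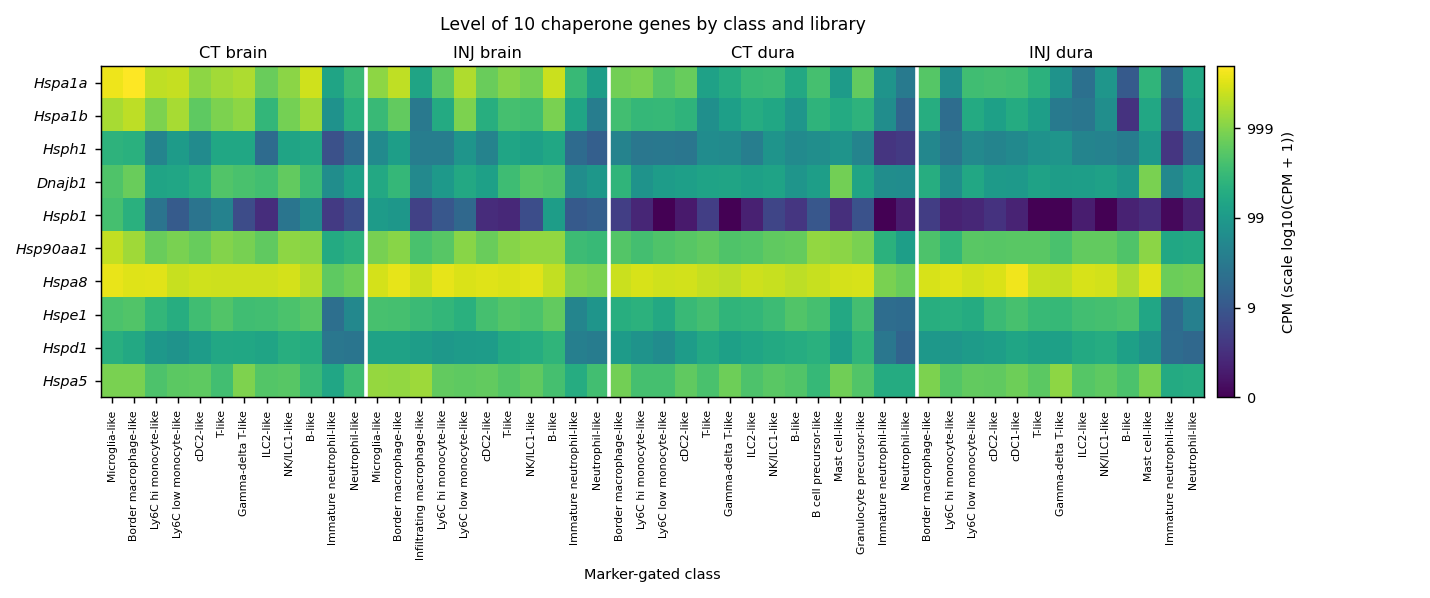
Level of each of the 10 members (rows) in each combination of class and library with at least 50 cells (columns, grouped by library), as the log10 of CPM plus 1. The block of CT brain is the brightest for Hspa1a and Hspa1b, at up to 4929 CPM for Hspa1a in border macrophage-like cells. Hspa8 varies least between blocks.

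Within CT brain, border macrophage-like cells had the highest Hspa1a level at 4929 CPM (4855 to 5004, 272 cells), followed by microglia-like cells at 3915 CPM (3856 to 3974, 402 cells) and B-like cells at 2659 CPM (2598 to 2720, 498 cells). Next came Ly6C low monocyte-like cells with 2345 CPM, Ly6C hi monocyte-like cells at 2191, gamma-delta T-like cells at 1724 and T-like cells at 1526 (1493 to 1560, 624 cells). Lower values were found in cDC2-like cells (1173 CPM), NK/ILC1-like cells (1139) and ILC2-like cells (699). Neutrophil-like cells were at 325 CPM and immature neutrophil-like cells at 144 CPM. Of the 11 pairs of neighbours in this order, the intervals of 1 pair, cDC2-like and NK/ILC1-like cells, overlapped. Whether barcodes with fewer than 500 detected genes hold free RNA, damaged cells or other cells was not tested. They were at 519 CPM (450 to 596) in CT brain. The level of both neutrophil classes was not above it.

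B-like and T-like cells showed the widest Hspa1a gaps between the control tissues. B-like cells of CT dura had Hspa1a at 171 CPM (155 to 188, 390 cells), which was 15.6-fold below those of CT brain. In T-like cells the level was 131 CPM in CT dura (110 to 155, 108 cells), 11.7-fold below CT brain. Both dural values were no higher than that of low-gene barcodes in CT dura, 216 CPM. How much of them is free RNA was not tested. Hspa1a was higher in CT brain than in CT dura in 11 of 11 classes found in both, by a log2 ratio of 0.78 in cDC2-like cells to 3.96 in B-like cells with a median of 2.17. In border macrophage-like cells the log2 ratio was 2.60 (2.55 to 2.65), from 814 CPM in CT dura to 4929 in CT brain.

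The share of cells carrying Hspa1a moved in the same direction. In CT brain 93.8% of border macrophage-like cells, 85.1% of microglia-like cells, 69.2% of T-like cells and 58.0% of B-like cells had an Hspa1a UMI, at median depths of 11360, 9510, 7277 and 4735 UMIs. After each cell was thinned to 2000 UMIs these shares were 84.9%, 68.4%, 52.4% and 47.2%. In CT dura the shares were 62.9% of border macrophage-like cells (38.9% thinned, median depth 12177), 17.6% of T-like cells (7.41% thinned, 8009) and 14.1% of B-like cells (6.41% thinned, 5359). Neutrophil-like cells, the lowest class in CT dura, had an Hspa1a UMI in 9.33% of cells there and in 35.9% in CT brain.

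**Figure D2:**
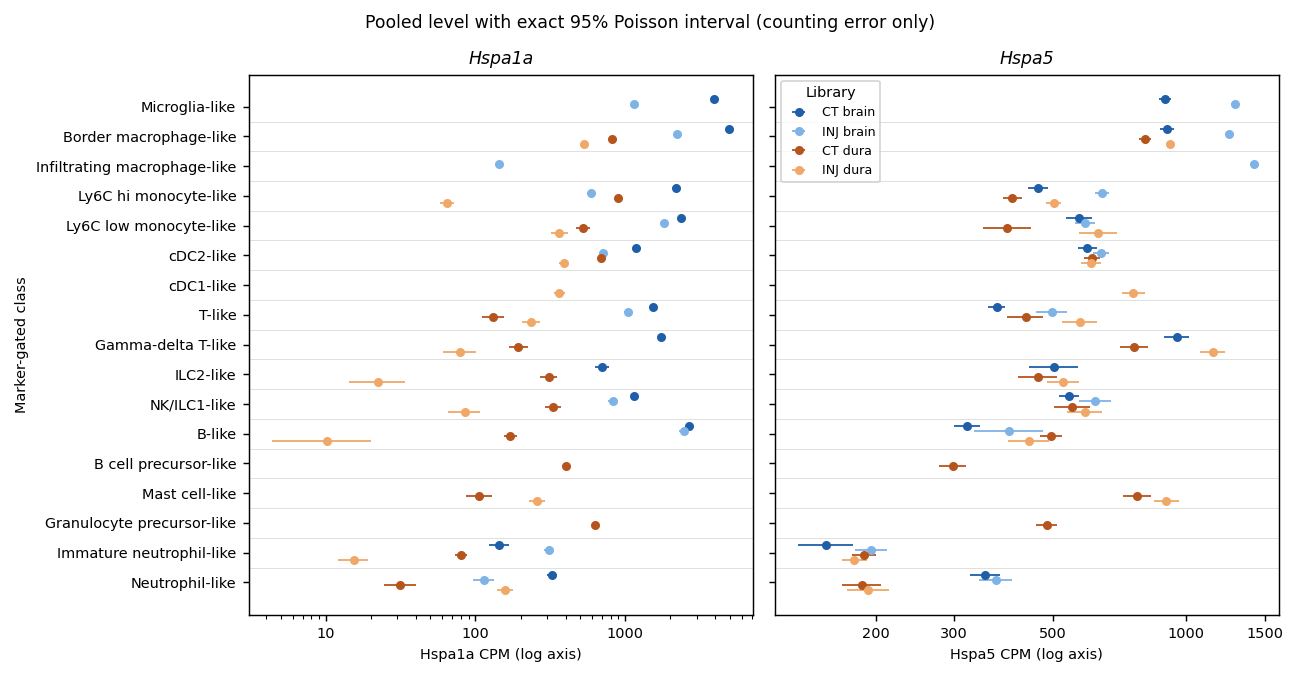
Hspa1a and Hspa5 CPM on a log axis for each class, with 1 point per library and bars for the 95% Poisson interval. CT brain points lie to the high side for Hspa1a in every class shown there except immature neutrophil-like cells, while the points of the libraries lie closer together for Hspa5.

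The other inducible cytosolic members followed the tissue less strongly. Hsph1, an HSP110 exchange factor that releases nucleotide from HSP70, was at 129 CPM in CT brain, 53.5 in INJ brain, 37.7 in CT dura and 39.0 in INJ dura over all kept cells. Dnajb1, an HSP40 co-chaperone, was at 376, 122, 148 and 143 CPM in that order of libraries. Hsp90aa1, the inducible cytosolic HSP90, was at 1072, 649, 566 and 452 CPM. CT brain was the highest library for all 3 over all kept cells. Of the 9 classes found in all 4 libraries, CT brain was highest in 6 for Dnajb1 but in 2 for Hsp90aa1. For Hsp90aa1 the highest library was INJ brain in 7 of these classes. By class, the median log2 ratio of CT brain over CT dura was 1.40 for Hsph1 over the 8 classes with at least 100 UMIs in both libraries together, 1.47 for Dnajb1 over 11 classes and 0.86 for Hsp90aa1 over 11 classes. Mast cell-like cells, found only in the dural libraries at 50 cells or more, had the highest dural Dnajb1 level, with 799.8 CPM in CT dura and 883 CPM in INJ dura.

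Hspb1, a small heat shock protein that holds unfolded proteins without ATP, was the most restricted member. It was at 407 CPM (388 to 426) in microglia-like cells and 221 CPM (206 to 238) in border macrophage-like cells of CT brain. In INJ brain these classes were at 107 CPM (99.4 to 114) and 87.6 CPM (80.1 to 95.5). B-like cells had the highest level of that library at 114 CPM (73 cells), with 28 Hspb1 UMIs in 1 cell. Border macrophage-like cells of the dura were at 3.81 CPM in CT dura and 3.74 CPM in INJ dura. All 14 classes of CT dura and all 13 of INJ dura lay at or below the level of low-gene barcodes of their library, as did 8 of 12 classes in CT brain and 8 of 11 in INJ brain. The level of these barcodes rests on 3 Hspb1 UMIs in CT dura, 3 in INJ dura, 16 in CT brain and 8 in INJ brain, so these counts are uncertain. Within classes the Hspb1 UMIs sat in few cells, since 23.4% of CT brain microglia-like cells had one (16.4% thinned) and the top 10% of cells held 85.2% of them, so the counting intervals are too narrow. Endothelial cells also express Hspb1, and the summed level of 4 endothelial markers was 20.4 CPM in microglia-like and 9.7 CPM in border macrophage-like cells of CT brain against a range of 4.0 to 122 CPM over the classes of that library. How much of the Hspb1 level comes from endothelial RNA was not tested.

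Constitutive, mitochondrial and endoplasmic reticulum members differed less between the control tissues than Hspa1a and Hspa1b did. Hspa8, the constitutive HSC70, was at 2687 CPM in CT brain, 2799 in INJ brain, 2293 in CT dura and 2571 in INJ dura. The mitochondrial co-chaperonin Hspe1 was at 382, 337, 257 and 221 CPM, and its partner Hspd1 at 146, 117, 122 and 99.9 CPM. The median log2 ratios of CT brain over CT dura were 0.09 for Hspa8, 0.31 for Hspe1, 0.13 for Hspd1 and 0.12 for Hspa5, the gene of BiP. Hspa5 itself was at 584, 1119, 489 and 626 CPM, highest in INJ brain. Single classes could differ more between CT brain and CT dura, in either direction. The median cell had 330 and 168 CPM of Hspe1 among border macrophage-like cells, and 241 and 380 CPM of Hspa5 among B-like cells.

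By class, Hspa5 ran from 155 CPM in immature neutrophil-like to 953 CPM in gamma-delta T-like cells of CT brain, where border macrophage-like cells were at 904 CPM and microglia-like cells at 897 CPM. In CT dura it ran from 186 CPM in neutrophil-like to 807 CPM in border macrophage-like cells, and in INJ dura from 179 CPM in immature neutrophil-like to 1147 CPM in gamma-delta T-like cells. Of neighbours in this order, the intervals of 8 of 11 pairs overlapped in CT brain, 10 of 13 in CT dura and 8 of 12 in INJ dura, so most classes next to each other were not distinguished even by counting error alone. In both dural libraries the neutrophil classes were at or below the low-gene barcodes, and no class of the brain libraries was.

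Counted over members and classes, 98 of 110 pairs had at least 100 UMIs in CT brain and CT dura together, of which 37 were at least 2-fold higher in CT brain and 0 at least 2-fold lower. Among all gene and class pairs that met this minimum 1.38% were at least 2-fold higher and 2.55% at least 2-fold lower. The members share cells and libraries, so the pairs are not independent, and a pair with a low level in 1 library met the minimum only through the other. Immediate early genes, a list of 18 genes such as Fos and Jun that also respond to dissociation, were at least 2-fold higher in 31 of 194 pairs and lower in 13. Their summed level was higher in CT brain in 8 of 11 classes, by log2 ratios from -0.29 to 0.49. For B-like cells, where Hspa1a differed most, the sum was 12124 CPM in CT brain and 8912 CPM in CT dura, and in T-like cells it was 10247 and 10237 CPM. The part of dissociation in these differences was not tested, and tissue cannot be told apart from the handling of 1 library. Among other cytosolic chaperones and HSF1 pathway genes 2 of 222 pairs were at least 2-fold higher and 1 lower, and among endoplasmic reticulum chaperone and unfolded protein response genes 2 of 182 were higher and 1 lower.

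Injury was first compared in the brain. In microglia-like cells Hspa1a was at 3915 CPM in CT brain and 1145 CPM (1121 to 1170, 539 cells) in INJ brain, a 3.42-fold lower level after injury (log2 ratio -1.77, -1.81 to -1.74). Hspa1b was 5.11-fold lower, from 1639 to 321 CPM, and Hsph1 4.21-fold lower, from 241 to 57.2 CPM. Dnajb1, Hspb1 and Hsp90aa1 had log2 ratios of -1.49, -1.93 and -1.40. Hspa8 (-0.40), Hspd1 (-0.68) and Hspe1 (-0.07) lay closer to 0, and Hspa5 was on the other side at 0.52 (0.47 to 0.57), from 897 to 1285 CPM. The median ratio of all genes with at least 100 UMIs in this class was -0.13, with 1.76% of them at least 2-fold lower and 3.88% at least 2-fold higher, beside 6 of the 10 members lower and 0 higher.

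Border macrophage-like cells of the brain showed the same split. Hspa1a was at 4929 CPM in CT brain and 2201 CPM (2163 to 2239, 437 cells) in INJ brain, with a log2 ratio of -1.16 (-1.20 to -1.13). This pools unequal differences, since Hspa1a was at 5681 CPM in CT brain and 4164 in INJ brain in cells led by the Lyve1 list, and at 4426 and 1399 CPM in cells led by the MHC class II list. The log2 ratio was -1.70 for Hspa1b, -1.32 for Dnajb1, -1.34 for Hspb1, -0.88 for Hsph1 and -0.41 for Hsp90aa1. Hspa8 was at 0.14 and Hspa5 at 0.47 (0.41 to 0.53), from 904 to 1250 CPM. Thus 4 members were at least 2-fold lower and 0 higher, where 1.53% and 1.56% of all genes tested in this class were.

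**Figure D3:**
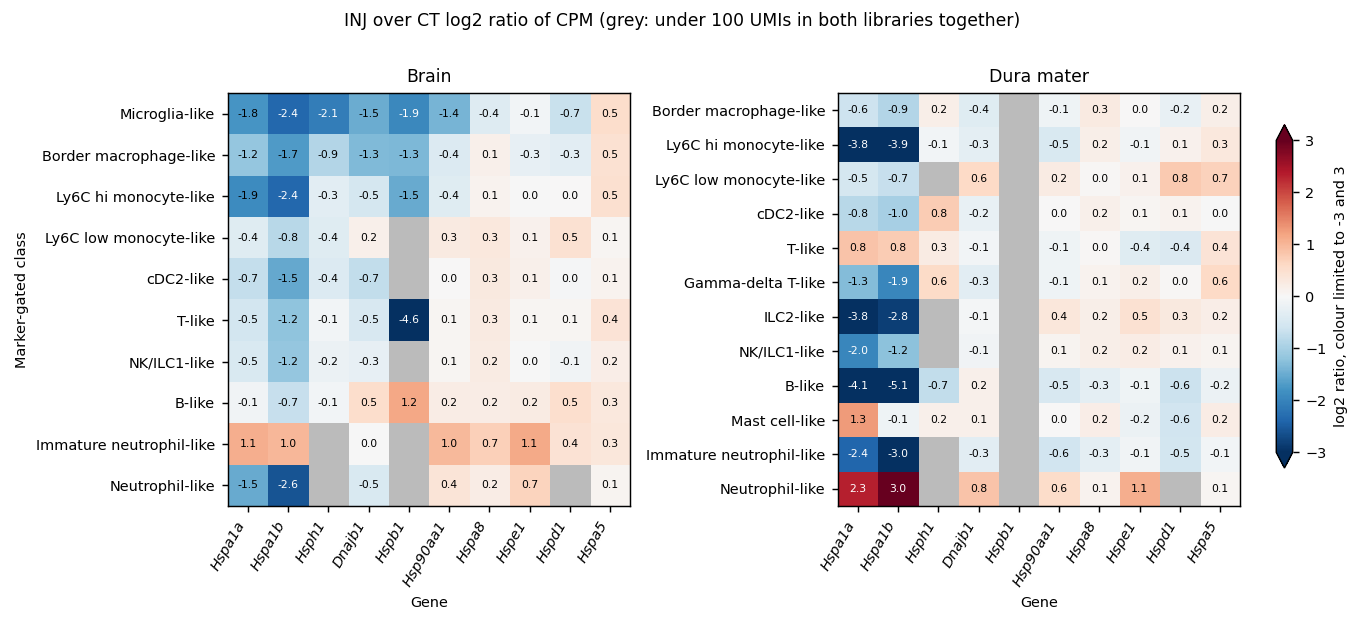
Log2 ratio of INJ over CT for each member (columns) in each class (rows), for the brain and the dura. Colour is limited to 3 in either direction, and grey marks pairs under 100 UMIs in both libraries together. In the brain Hspa1a and Hspa1b are on the low side in 9 of 10 classes and Hspa5 on the high side in 10 of 10, and in the dura the HSP70 pair ranges widely between classes.

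Across the 10 brain classes Hspa1a was lower in INJ brain in 9, with a median log2 ratio of -0.63, and its interval lay below 0 in each of these 9. The exception was immature neutrophil-like cells at 1.09 (0.86 to 1.33), from 144 CPM, a level under that of low-gene barcodes, to 308 CPM. That sign was lost without the filter on cells (-0.090). Neutrophil-like cells, at or below the low-gene barcodes in both libraries, counted among the 9 at -1.51 but were at 1.13 with classes from clusters. Hspa1a was -1.90 in Ly6C hi monocyte-like cells, -0.72 in cDC2-like cells, -0.55 in T-like cells and -0.11 in B-like cells. The median ratio was -1.38 for Hspa1b, -0.47 for Dnajb1, -0.34 for Hsph1, 0.06 for Hsp90aa1, 0.10 for Hspe1, 0.00 for Hspd1 and 0.22 for Hspa8. For Hspa5 the ratio ran from 0.05 in Ly6C low monocyte-like cells to 0.52 in microglia-like cells with a median of 0.33, above 0 in 10 of 10 classes, with an interval above 0 in 8.

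Of 100 member and class pairs in the brain 92 met the 100-UMI minimum, and 19 of them were at least 2-fold lower after injury and 4 at least 2-fold higher. Over all genes 1.86% of pairs were lower and 2.81% higher by that much. The summed level of immediate early genes was lower in INJ brain in 10 of 10 classes too, by log2 ratios from -0.70 in Ly6C hi monocyte-like cells to -0.14 in B-like cells, and in microglia-like cells it was 34663 CPM in CT brain and 21829 CPM in INJ brain. By gene, 9 of 178 pairs were at least 2-fold higher and 12 lower. Jun (-1.05) and Jund (-1.03), subunits of the AP-1 transcription factor, were the immediate early genes past 2-fold there that the naming rule picked. From the list of other cytosolic chaperones, Bag3, a co-chaperone induced by HSF1, was at 88.0 CPM in CT brain and 28.6 in INJ brain microglia-like cells (-1.62). How far dissociation bears on these ratios was not tested. Hypoxia genes were at least 2-fold higher in 29 of 59 pairs and lower in 0, for example Hilpda, a lipid droplet protein, at 2.14 in microglia-like cells. The summed level of endoplasmic reticulum chaperones and unfolded protein response genes was higher in INJ brain in 10 of 10 classes, by 0.13 to 0.58, with 8 of 173 pairs at least 2-fold higher and 1 lower.

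Neutrophil-like cells gave low and unsteady HSP70 values. Hspa1a was at 325 CPM in CT brain, 114 in INJ brain, 31.5 in CT dura and 158 in INJ dura, each at or below the low-gene barcodes of its library. All Hspa1a UMIs of both dural neutrophil-like groups lay in the top 10% of cells. Hspa5 was at 352 CPM in CT brain, 372 in INJ brain, 186 in CT dura and 193 in INJ dura, so that the brain libraries were above the dural libraries with or without injury. Beside it, Hsp90b1 (1.46) and Calr (1.08), chaperones of the endoplasmic reticulum, were past 2-fold higher in INJ brain neutrophil-like cells.

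In the dura the injury ratios of the HSP70 pair scattered. Hspa1a was at 814 CPM in CT dura and 529 CPM (515 to 543, 674 cells) in INJ dura in border macrophage-like cells, a log2 ratio of -0.62 (-0.68 to -0.56). It was lower in INJ dura in 9 of 12 classes, with a median log2 ratio of -1.05. In Ly6C hi monocyte-like cells it was at 898 CPM in CT dura and 64.9 CPM in INJ dura, and in ILC2-like cells at 308 and 22.4 CPM. T-like cells (131 and 235 CPM), mast cell-like cells (106 and 259 CPM) and neutrophil-like cells went the other way. A single T-like cell held 110 of the 195 Hspa1a UMIs of that class in INJ dura, and without it the level was 105 CPM, under that of CT dura, an alternative chosen after seeing the data. Neutrophil-like cells were at -0.23 without the top 1% of cells. In INJ dura 7 of 13 classes were at or below the level of low-gene barcodes, 160 CPM from 21 UMIs, and in CT dura 6 of 14 were. B-like cells of INJ dura carried 8 Hspa1a UMIs in 129 cells.

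Of 120 member and class pairs in the dura 102 met the minimum, 12 being at least 2-fold lower in INJ dura and 4 at least 2-fold higher, against 0.761% and 1.12% of all pairs. All 12 lower pairs belonged to Hspa1a and Hspa1b, 6 each. After thinning to 2000 UMIs the count of lower pairs was 4 of 55. No Hspb1 pair met the minimum. Median log2 ratios of the remaining members ran from -0.09 for Dnajb1 to 0.19 for Hspa5, with Hspa8 at 0.13. Hspa5 was above 0 in 9 of 12 classes and its interval in 7, from -0.17 in B-like cells to 0.68 in Ly6C low monocyte-like cells. Immediate early genes summed lower in INJ dura in 8 of 12 classes, by log2 ratios between -0.36 and 0.40, with 16 of 211 pairs at least 2-fold higher and 4 lower.

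Cells of 1 class were far from uniform. The median microglia-like cell of CT brain had 3178 CPM of Hspa1a, with quartiles at 127 and 7284 CPM, and the top 10% of cells held 32.6% of the UMIs. In INJ brain the median was 201 CPM, with quartiles at 0 and 2071, and the top 10% held 49.5%. The upper quartile of INJ brain thus lay under the median of CT brain. For border macrophage-like cells the medians were 4735 CPM in CT brain, 1000 in INJ brain, 145 in CT dura and 106 in INJ dura. Hspa5 was spread more evenly, with the top 10% of cells holding 30.1% of its UMIs in CT brain and 41.9% in INJ brain microglia-like cells.

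**Figure D4:**
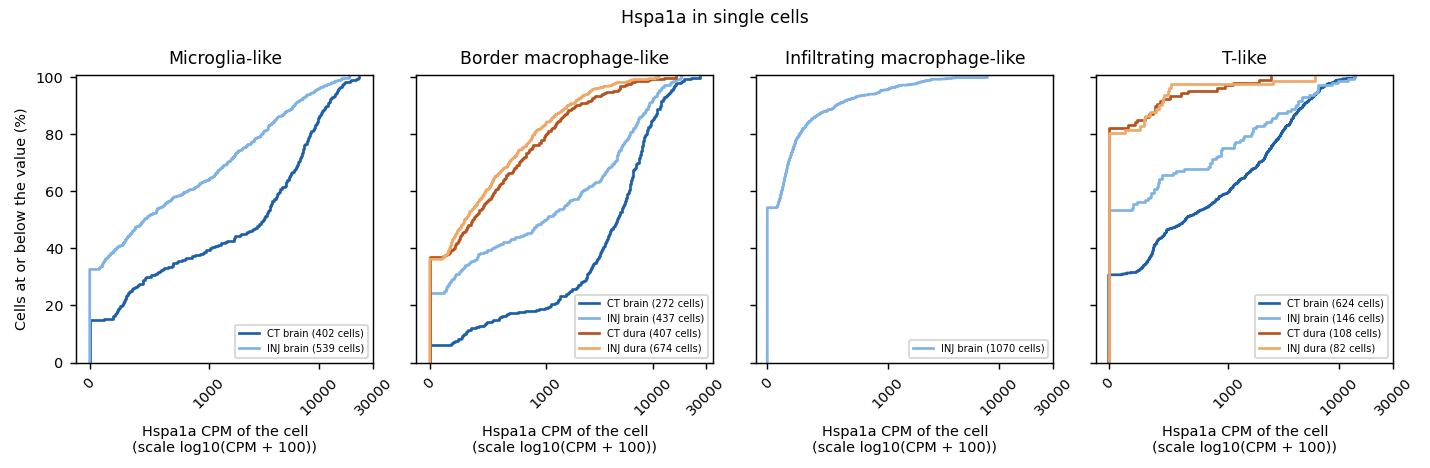
Cumulative percent of cells against the Hspa1a level of the cell in CPM, for microglia-, border macrophage-, infiltrating macrophage- and T-like cells, with 1 line per library. The CT brain line is the farthest to the right in each panel where it is drawn, with a median of 3178 CPM in microglia-like cells.

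From cell to cell the members varied together only in part. In CT brain microglia-like cells the Spearman rho of the CPM of a cell with that of Hspa1a was 0.73 for Hspa1b, 0.52 for Hsph1, 0.52 for Hspa8, 0.50 for Hsp90aa1 and 0.42 for Dnajb1, and 0.10 for Hspa5. For the immediate early genes Jun and Fos it was 0.35 and 0.07. In INJ brain border macrophage-like cells it was 0.82 for Hspa1b, 0.61 for Hspa8, 0.65 for Jun and 0.49 for Fos. These cells come from 1 library each and share its handling, rho with the UMIs of the cell was -0.20 and -0.42 in these groups, and cells are not replicates, so the values are a description. Of CT brain microglia-like cells with an Hspa1a UMI 80.7% also had an Hspa1b UMI, against 58.1% in INJ brain.

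The ratio of Hspa1a to Hspa1b UMIs was not constant. Over classes it ran from 1.39 to 2.49 in CT brain and from 1.99 to 4.73 in INJ brain. In the dura it ran from 0.589 to 3.09 in CT dura and from 0.821 to 3.27 in INJ dura. The INJ dura range leaves out B-like cells, which held 8 Hspa1a and 2 Hspa1b UMIs.

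Brain and dura were also compared after injury. Hspa1a was higher in INJ brain than in INJ dura in 8 of 9 classes, by a median log2 ratio of 2.32. Over the members 78 of 90 pairs met the 100-UMI minimum, and 26 were at least 2-fold higher in INJ brain and 1 lower, against 2.33% and 2.96% of all pairs. The lower pair was Hspa1b in neutrophil-like cells, with a log2 ratio of -1.72 that was 4.75 with classes from clusters and 1.62 without the top 1% of cells.

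Infiltrating macrophage-like cells, marked by Arg1, Gpnmb and Spp1 and found at 50 cells or more only in INJ brain, had the lowest HSP70 levels among the macrophages of that library. Hspa1a was at 143 CPM (138 to 147, 1070 cells), against 2201 CPM in border macrophage-like and 1145 CPM in microglia-like cells of the same tube, 15.4-fold below the former (log2 ratio -3.95). The low-gene barcodes of INJ brain were at 162 CPM, and the level in infiltrating macrophage-like cells was no higher. How much of that level is free RNA was not tested. Their Hspa1b level (30.2 CPM) and Hspb1 level (4.21 CPM) were also under those of low-gene barcodes, at 62.4 and 16.6 CPM from 30 and 8 UMIs. With a median of 22794 UMIs per cell, 45.7% of them had an Hspa1a UMI, a share that was 12.7% once each cell was thinned. Border macrophage-like cells, with a median of 11122 UMIs, had one in 75.7% and 59.3% of cells.

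Against border macrophage-like cells, 6 of 10 members were at least 2-fold lower and 0 higher, where 7.45% of all genes tested were lower and 4.61% higher. All 10 members met the 100-UMI minimum. The other log2 ratios past 2-fold were -4.40 for Hspa1b, -4.38 for Hspb1, -2.40 for Dnajb1, -1.74 for Hsph1 and -1.33 for Hsp90aa1. Hspa8 was at -0.46, Hspe1 at -0.32 and Hspd1 at -0.26. Hspa5 was at 0.18 (0.15 to 0.22), with 1418 CPM in infiltrating, 1250 in border and 1285 in microglia-like cells, and the sign of that ratio depended on which border macrophages were taken, being -0.09 against those led by the Lyve1 list and 0.31 against those led by the MHC class II list. Hspa1a was at -4.87 against the former and -3.29 against the latter.

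**Figure D5:**
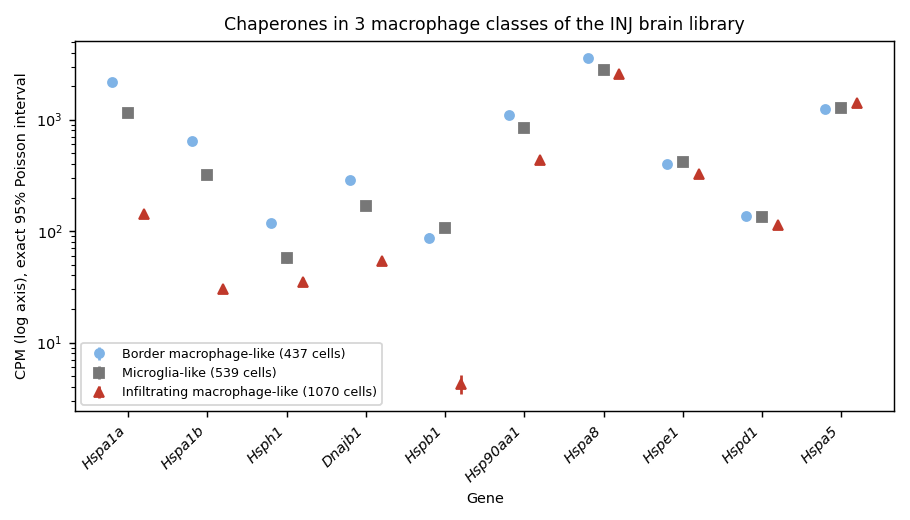
CPM of the 10 members in infiltrating, border and microglia-like cells of INJ brain on a log axis. The infiltrating class is lowest for the inducible cytosolic members, at 143 CPM for Hspa1a, and lies beside the others for Hspa8, Hspe1, Hspd1 and Hspa5.

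Other lists moved unevenly in that comparison. The summed level of immediate early genes was 12615 CPM in infiltrating and 21230 CPM in border macrophage-like cells, and 8 of 18 were at least 2-fold lower, led by Egr1 (-3.31), Jun (-2.52) and Jund (-1.70). Of 27 other cytosolic chaperone and HSF1 pathway genes 3 were at least 2-fold lower, namely the HSP40 gene Dnajb4 (-1.31), the HSP90 co-chaperone Fkbp5 (-1.25) and Bag3 (-1.01). None of 7 genes of the cytosolic chaperonin TRiC and none of 7 other mitochondrial chaperones passed 2-fold. Among 20 endoplasmic reticulum genes only Herpud1 (-1.71), which acts in the degradation of misfolded proteins, did so. All 7 hypoxia genes tested were at least 2-fold higher, such as Bnip3, a mitophagy receptor, at 2.15. Both classes came from 1 tube and were digested together, and a part of dissociation in the difference was not tested.

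Border macrophage-like cells themselves split by tissue in opposite ways. In CT brain those led by the Lyve1 list (118 cells) had more Hspa1a than those led by the MHC class II list (154 cells), and INJ brain had that order too, with the levels given above. In CT dura the order was the other way round, with 485 CPM in the Lyve1 group and 1594 CPM in the MHC class II group, and in INJ dura it was 378 and 990 CPM. Hspa5 was higher in the Lyve1 group in all 4 libraries, at 1141 and 746 CPM in CT brain, 1505 and 1146 in INJ brain, 816 and 786 in CT dura and 938 and 852 in INJ dura.

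The genes whose log2(CPM + 1) followed Hspa1a most closely over the 50 class and library groups were sought among 5070 genes with a median of at least 20 CPM. Hspa1b came first (Pearson r = 0.96), followed by Hsp90aa1 (0.67) and Hsph1 (0.65). Outside the 10 members the chemokine gene Ccl3 (0.61), the stress-induced transcription factor gene Atf3 (0.58), Bbc3 (0.57), Plekha1 (0.57) and Stx16 (0.56) were closest. Hspa5 correlated with Hspa1a at 0.35. Closest to Hspa5 were Calr (0.92), Pdia3 (0.88), Pdia6 (0.88), Atraid (0.88) and Lap3 (0.88), of which Calr, Pdia3 and Pdia6 act in protein folding in the endoplasmic reticulum. The groups share libraries and depth, so r is a description.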

How the data were processed

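CD45+ cells were released with collagenase, dispase and DNase, sorted and processed with the 10x Chromium 3′ v3 kit by the authors, and each of 4 libraries is 1 group. Per the labels, Cell Ranger 3.1.0, Seurat 3.1.0 and mm10 were used. Whether counting used the strand is not given in the sources used here. The authors normalized each cell to 10000 UMIs and took the natural log after adding 1, which is the unit of the matrices as deposited. Every value was a whole multiple of the smallest in its cell within 1e-06, so UMIs were recovered on the premise that the smallest is 1 UMI. The design of the tests had allowed for this or for raw counts. Genes not listed in a library were taken as 0.

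Cells were kept that had over 1000 and under 6000 genes and no more than 7% of UMIs from mitochondrial genes. The automatic call of Scrublet in scanpy 1.11.5 marked 0.0435% to 0.4% of cells, so the highest scores were removed at 0.8% per 1000 barcodes (99 to 281 cells). Kept cells held 36107128 UMIs in CT brain, 40543554 in CT dura, 69123912 in INJ brain and 39499909 in INJ dura. A cell took the class whose markers had the highest mean standardized level, at 0.5 or more and 0.25 above the next class, and 1201 cells stayed unassigned and 274 were led by markers of other cell types. Of assigned cells, 85.3% lay in a cluster of the same class.

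UMIs were summed by class and library where 50 cells or more were present. CPM and shares carry exact Poisson and Clopper-Pearson intervals at 95%, and a CPM ratio that of 2 Poisson counts conditioned on their sum, from scipy 1.17.1. With 1 library per group no test was run and no p-value is given. PCR copies were collapsed by UMI, and the intervals are for counting only. Calls are ratios past 2-fold among genes whose UMIs summed to 100 or more over the pair. All 10 members were named, and from each further list up to 3 genes per direction with at least 200 UMIs and the largest ratios past 2-fold, in microglia-, border macrophage-, neutrophil- and infiltrating macrophage-like cells. The members and the lists were chosen with earlier results of these data known. Ratios were checked on simulated counts. Positions are those of GRCm38. Alternatives covered filters, doublets, gates, clusters, depth, weights, denominators, centring, the highest cells and 2500 cells per library.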

Additional observations from a re-analysis of the deposited data

Results flagged for a closer look

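Some members moved in opposite directions after injury in the brain and in the dura, with intervals on either side of 0. Each direction rests on 1 library against 1, and the difference between the tissues was not tested. In T-like cells Hspa1a had a log2 ratio of INJ over CT of -0.55 in the brain and 0.84 in the dura, and Hspa1b of -1.22 and 0.76. The dural T-like groups held 108 and 82 cells, and the top 10% of cells carried 93.4% and 95.9% of their Hspa1a UMIs. In INJ dura 1 T-like cell held 110 of 195 Hspa1a UMIs, and 1 held 52 of 96 Hspa1b UMIs. With the cell that held them left out, the dural ratio of the gene turned, to -0.32 for Hspa1a and -0.33 for Hspa1b, and without the top cell of both dural libraries it was 0.050 and 0.22. These alternatives were chosen after seeing the data. A stricter marker gate gave -0.050 for Hspa1a.

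In neutrophil-like cells Hspa1a was at -1.51 in the brain and 2.32 in the dura, and Hspa1b at -2.59 and 3.02. In immature neutrophil-like cells the signs were the other way round, with Hspa1a at 1.09 in the brain and -2.39 in the dura, and Hspa1b at 1.0 and -3.02. Hsp90aa1 was at 0.96 and -0.57 in immature neutrophil-like cells. The neutrophil values did not hold under every alternative, as given below. Of these 8 groups of neutrophil classes, 1, immature neutrophil-like cells of INJ brain, had Hspa1a above the level of the low-gene barcodes of its library.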

How the results depend on the processing

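No paired analysis was possible because each group is 1 library. Hspa1a in CT brain microglia-like cells, 3915 CPM in the report, was 3557 CPM without the filter on cells, 3623 with doublets kept, 4036 with a stricter gate, 3787 with classes from clusters, 4419 after thinning, 4441 with every cell weighted equally, 4566 with mitochondrial and ribosomal UMIs left out, 3769 without the top 1% of cells and 3824 with 2500 cells per library. The share of CT brain T-like cells with an Hspa1a UMI was 69.2%, and 52.4% after thinning. Member and class pairs at least 2-fold lower after injury numbered 13 to 22 in the brain over the alternatives, and in the dura 10 to 14, except 4 after thinning, when only 55 pairs met the minimum. Pairs at least 2-fold higher in CT brain than in CT dura numbered 32 to 42, and members lower in infiltrating macrophage-like cells 5 or 6. Of all ratios, called or not, 13 of 340 (2500 cells per library) to 34 of 330 (clusters) changed sign, with 28 of 269 after thinning. Among ratios past 2-fold, signs reversed for neutrophil classes and 1 sparse gene. The INJ over CT ratio in immature neutrophil-like cells of the brain was -0.090 for Hspa1a and -0.20 for Hspa1b without the filter, and -0.43 for Hspa1a with clusters. With clusters, neutrophil-like cells of the brain were at 1.13 for Hspa1a and 0.46 for Hspa1b, and Hspa1b of INJ brain over INJ dura at 4.75. Without the top 1% of cells that last ratio was 1.62, Hspa1a in dural neutrophil-like cells -0.23 and Hspb1 in brain B-like cells -0.22. The cause was not tested. In alternatives chosen after seeing the data, the ratio of infiltrating over border macrophage-like cells was taken for each border list. Over those of the Lyve1 list it was -4.87 for Hspa1a and -0.09 for Hspa5, and over those of the MHC class II list -3.29 and 0.31. The median ratio of all genes lay between -0.22 and 0.17 by class and contrast, and centring on it gave 19, 13, 36 and 6 pairs in the order above. Levels near those of low-gene barcodes are limited by depth and may include free RNA, the share of which was not tested.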
